A study of Oryza sativa Japonica Group with 12 samples.

Results

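JAZ2 and JAZ13 encode JAZ proteins, the repressors that hold jasmonate responses in check. Their probe sets were taken by a rule: every probe set assigned to 1 gene whose symbol or synonym is JAZ2 or JAZ13. The rule found 2 probe sets of 2 genes, among 57194 probe sets of the Affymetrix Rice Genome Array, of which 22436 are assigned to 1 gene and together stand for 17905 genes. JAZ2 is LOC4342421 (TIFY5) and JAZ13 is LOC4348531 (TIFY11E), each read by 1 probe set. The numbering of rice JAZ genes differs between sources, and a further gene, LOC4331833, listed as JAZ11 (TIFY11C), also carries the synonym OsJAZ2. With a leading Os disregarded the rule would find 3 genes, so the values of JAZ11 are given beside those of the pair. JAZ2 and JAZ13 were chosen by their measured log2 signals, for the array in which they part in opposite directions, so their levels and differences are a description and carry no test.

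The tissue was the basal 5 mm of shoots of the cultivar Nipponbare, grown hydroponically with 1 mM ammonium as nitrogen source. The groups were homozygous gs1;2 plants at 7 d, wild type (WT) at 7 d, gs1;2 plants at 11 d and WT at 11 d, with 3 arrays each and 12 arrays in all. The gs1;2 plants lack cytosolic glutamine synthetase 1;2, which joins ammonium to glutamate, and the labels give no allele or number of mutant lines. Values are log2 signals after RMA (robust multi-array averaging), so a difference of 1 is a doubling of signal, and levels of different probe sets are not compared. In bulk tissue, fewer cells of a type and less RNA per cell cannot be told apart.

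Jasmonate acts through its conjugate with isoleucine, which JAR1 makes and which binds the F-box receptor COI1 together with a JAZ protein. The JAZ protein is then degraded, which frees transcription factors such as MYC2 that it had repressed with the adaptor NINJA and co-repressors of the TOPLESS type. Many JAZ genes are themselves switched on by jasmonate, so that the response limits itself, and the hormone is known for wound and pathogen responses in rice leaves and shoots.

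The mutated gene, listed as GLN1-2, was read first because it checks the labels. It was at 7.76, 7.65 and 7.80 in gs1;2 arrays at 7 d, against 12.38, 12.31 and 12.46 in WT arrays at 7 d. At 11 d it was at 8.37, 8.65 and 11.44 in the arrays labelled gs1;2, against 12.44, 12.42 and 12.50 in WT arrays. The array labelled gs1;2 11 d replicate 3 therefore goes against its label in this gene, and it is also the array in which JAZ2 and JAZ13 part. Over all probe sets it correlated with the other arrays of its group at 0.9953 and 0.9957, and with WT arrays at 11 d at 0.9823 to 0.9852. Results that rest on it are given with and without it. Of the 4 measured meristem markers of a list of 5, OSH71 had a mean of 9.97 in the arrays labelled gs1;2 at 11 d, against 10.48 in WT at 11 d. The other markers had means of 11.67 against 11.55 (OSH1), 8.24 against 7.95 (OSH6) and 5.62 against 5.61 (OSH43) in the same groups. For OSH1 and OSH43 the brighter probe set is given.

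JAZ2 was near the bottom of the signal range in every array but the array in doubt. Its log2 signal was 2.18, 2.36 and 2.36 in gs1;2 arrays at 7 d, against 2.30, 2.29 and 2.42 in WT arrays at 7 d. At 11 d it was 2.27, 2.18 and 8.07 in the arrays labelled gs1;2, against 2.15, 2.36 and 2.30 in WT arrays. The 11 arrays other than the one labelled gs1;2 11 d replicate 3 thus lay between 2.15 and 2.42 whatever the genotype or age, with a mean of 2.29, and only 1.4% of all probe sets had a lower mean over them. In the remaining array JAZ2 was at a level that 77.3% of the probe sets of the array were below. Detection calls were not used here, so whether 2.29 stands above background is unknown, and no fold is given against it.

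The group summaries of JAZ2 rest on that array. The mean at 11 d was 4.17 ± 3.38 in the arrays labelled gs1;2 and 2.27 ± 0.11 in WT (SD, n = 3 each), a log2 difference of 1.90 (SE 1.12) that was -0.05 (SE 0.09) without the array in doubt. The difference at 7 d was -0.04, with an SE of 1.12 over all 12 arrays and of 0.08 without that array, because the fit shares its estimate of the spread between groups. Between 11 d and 7 d JAZ2 differed by 1.87 in gs1;2 plants with that array and by -0.08 without it, and by -0.07 in WT plants.

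JAZ13 varied more widely, between ages, genotypes and replicates, and lay lowest in WT at 11 d. Its log2 signal was 8.29, 7.41 and 7.62 in gs1;2 arrays at 7 d, against 7.24, 7.04 and 6.02 in WT arrays at 7 d. At 11 d it was 5.79, 6.69 and 4.10 in the arrays labelled gs1;2, against 3.96, 4.33 and 3.70 in WT arrays. The 2 genotypes do not overlap at 7 d, and at 11 d they overlap through the array labelled gs1;2 11 d replicate 3 alone, which lies within the range of WT.

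In order of level, the group means of JAZ13 were 7.78 ± 0.46 in gs1;2 at 7 d, 6.77 ± 0.65 in WT at 7 d, 5.53 ± 1.31 in gs1;2 at 11 d and 4.00 ± 0.32 in WT at 11 d (SD, n = 3 each). The arrays of WT at 7 d overlap with those of gs1;2 at 11 d, with 6.02 in WT replicate 3 and 6.69 in gs1;2 replicate 2. The order of these neighbours is that of their means, and this comparison was not fitted. JAZ13 was higher in gs1;2 than in WT by 1.01 (SE 0.52) at 7 d, which is 2.01-fold, and by 1.53 (SE 0.52) at 11 d. The WT mean of 4.00 at 11 d is at the level used here as a filter for dim probe sets, so differences from that group may be limited by background. Without the array in doubt the difference at 11 d was 2.25 (SE 0.38), and without WT 7 d replicate 3, the lowest of its group, the difference at 7 d was 0.64 (SE 0.56). At 11 d JAZ13 was lower than at 7 d in both genotypes, with log2 differences of -2.25 (SE 0.52) in gs1;2 and -2.77 (SE 0.52) in WT. In gs1;2 the age difference was -1.54 (SE 0.38) without the array in doubt.

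**Figure D1:**
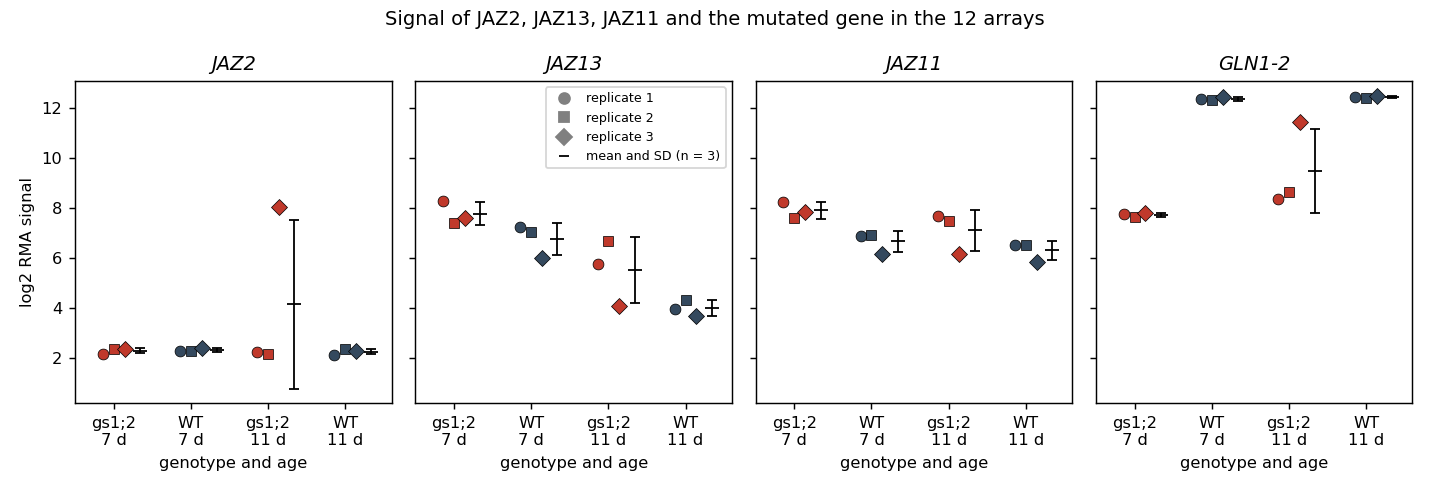
Log2 RMA signal (vertical axis) of JAZ2, JAZ13, JAZ11 and GLN1-2 in gs1;2 and WT arrays at 7 and 11 d (horizontal axis). Each point is an array, its shape gives the replicate, and the bars beside the points give the mean and SD of 3 arrays; JAZ2 stands at 8.07 in 1 array and at 2.42 or below in the other 11, and the same array has JAZ13 at 4.10 and GLN1-2 at 11.44.

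The array in which the pair parts was found by setting each array against the mean of the other arrays of its group. In the array labelled gs1;2 11 d replicate 3, JAZ2 was 5.85 above that mean and JAZ13 was 2.14 below it, a gap of 7.99. The gaps of 4.74 and 3.25 in replicates 2 and 1 of the same group follow from that array, since it enters the mean they are set against. In the other groups the widest gap was 1.24, in WT 7 d replicate 3. These are the values that chose the pair and support nothing further.

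In the array in doubt JAZ2 had the largest deviation of all 57194 probe sets in either direction, GLN1-2 ranked 14 with 2.92 and JAZ13 ranked 36. The deviation of JAZ2 is set against signals that may be background. In all, 43 probe sets deviated by at least 2 there, against 2 to 88 in the other arrays. Probe sets that were under 4 in 11 arrays and at 6 or more in the remaining array numbered 4 for this array, 10 for gs1;2 7 d replicate 2, 1 for WT 11 d replicate 2 and 0 for each other array. The 4 are JAZ2 and 3 probe sets with no gene listed, at 8.05, 6.50 and 6.67 in this array. The suffix of the JAZ2 probe set marks probes shared by more than 1 transcript, and the gene has no other probe set, so a second reading was not had.

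The genes beside JAZ2 did not share its departure. Of the 6 genes on either side in the gene order of the assembly ASM3414082v1, 5 were measured, by 7 probe sets, and their deviations in this array lay between -0.08 and 0.22. Within 6 places of JAZ13, 4 genes were measured, and their deviations were -0.45 for JAZ12, -0.23 for OsSPX3, 0.03 for LOC4348528 and 0.39 for LOC4348526, so they went either way.

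By the size of their deviation in this array, the 5 highest genes with a name were JAZ2, GLN1-2, the lipoxygenase gene LOX1.1 (2.75), Chib3H-a (1.88), named as a chitinase, and the cellulose synthase-like gene CSLC3 (1.46). The 5 lowest were the laccase gene LAC24 (-3.15), the probenazole-induced defence gene PBZ1 (-2.99), CPS2 (-2.55) and CYP701A8 (-2.33), both of diterpenoid synthesis, and OPR5 (-2.55), a relative of the 12-oxophytodienoate reductases. Of these 10 genes, JAZ2 and OPR5 lay outside the range of the other 11 arrays. The remaining 8 lay within the range of values seen elsewhere in the study.

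**Figure D2:**
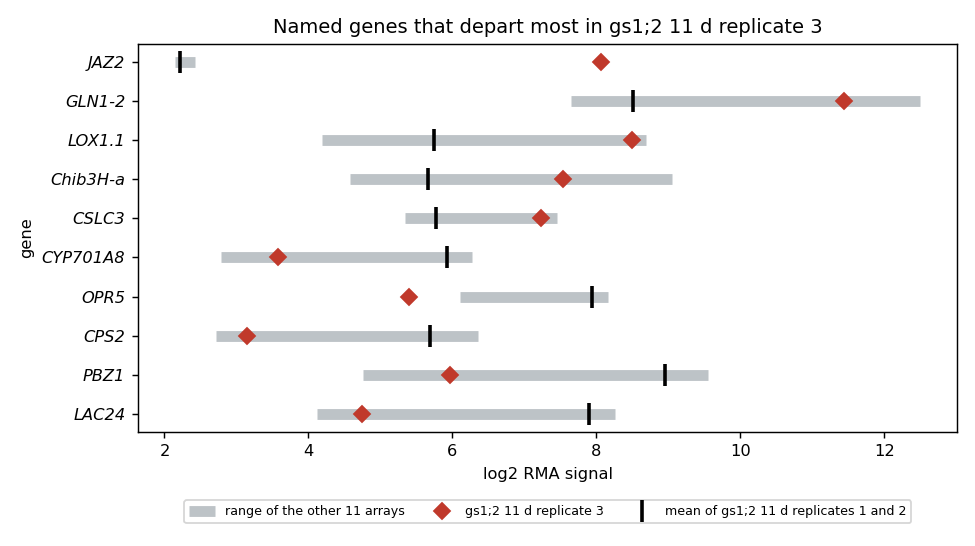
Log2 RMA signal (horizontal axis) of the 5 named genes with the largest positive and the 5 with the largest negative deviation in the array labelled gs1;2 11 d replicate 3 (vertical axis: gene). Red diamonds are that array, black ticks the mean of replicates 1 and 2 of its group, and grey bars the range of the other 11 arrays; the diamond of JAZ2 at 8.07 lies far to the right of its bar, which ends at 2.42, and that of OPR5 at 5.40 lies left of its own.

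The other JAZ genes were set beside the pair to see whether the family shares either pattern. All 13 JAZ genes listed for rice had a probe set. In the array in doubt all 11 other JAZ genes were lower than the mean of the other arrays of the group, as JAZ13 was, by a median of -0.25 and a range from -1.42 for JAZ11 to -0.01 for JAZ5. Among all 17905 genes 48.6% were lower in that array, with a median deviation of 0. JAZ2 was the sole one of the 13 above its group there.

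A common direction of the family was also seen in other arrays. All 11 were lower in gs1;2 7 d replicate 3 (median -0.18), where 37.5% of all genes were lower. None was lower in gs1;2 7 d replicate 1 (median 0.29) or in WT 7 d replicate 2 (median 0.38), where 49.8% and 52.9% of all genes were. Each array enters the mean that the others of its group are set against, so arrays of a group are not separate cases. In WT 7 d replicate 3, where JAZ13 was 1.12 below its group, 7 of the 11 were lower (median -0.51), against 46.9% of all genes. In the array in doubt, 13 of 24 jasmonate genes outside the family were lower (median -0.02). No test was made of these counts, which describe single arrays.

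**Figure D3:**
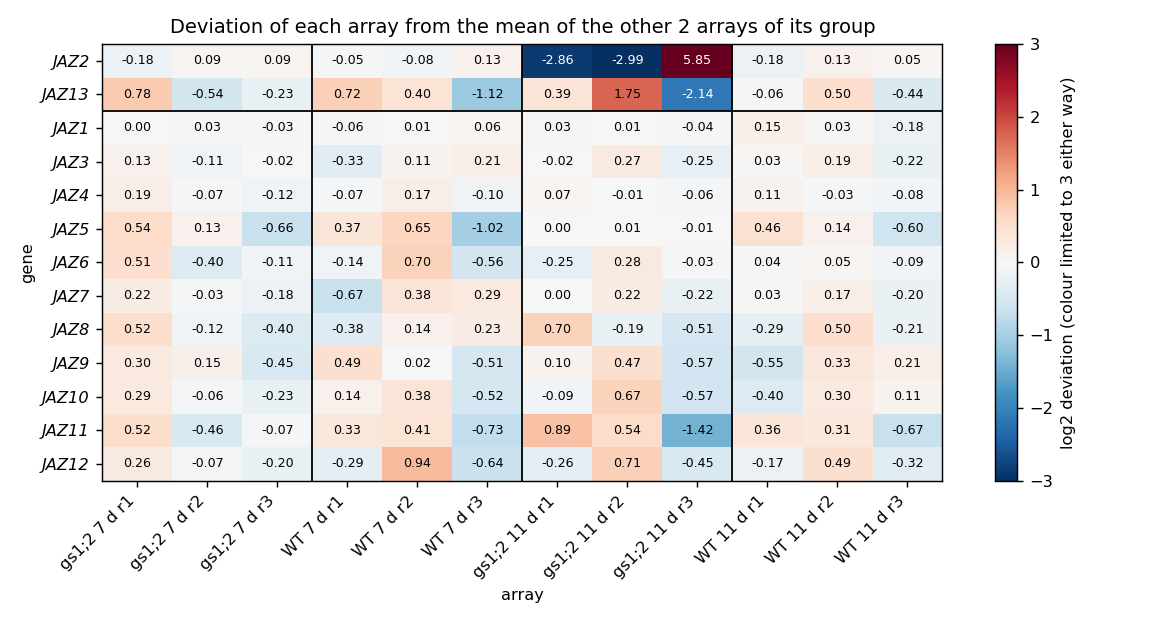
Deviation of each array (columns) from the mean of the other arrays of its group, in log2 units, for JAZ2, JAZ13 and the 11 other JAZ genes (rows). Colour and printed value give the deviation; in the column of gs1;2 11 d replicate 3, JAZ2 is at 5.85 while JAZ13 (-2.14), JAZ11 (-1.42) and the other 10 are below 0.

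Of the family, JAZ9, JAZ10 and JAZ11, which stand side by side in the gene order, were most like JAZ13 over all 12 arrays. Pearson's r with JAZ13 was 0.94 for JAZ9 (Spearman's rho 0.97), 0.87 for JAZ10 (0.84) and 0.80 for JAZ11 (0.80), and it was 0.94, 0.85 and 0.78 without the array in doubt. With group means removed, r over all 12 arrays was 0.75, 0.85 and 0.89. This was not computed without the array in doubt, in which JAZ13 (-2.14) and JAZ11 (-1.42) had their largest deviations. Whether the likeness between replicates of a group holds without that array is therefore not known. The arrays of a group share genotype and age, so these values describe 12 arrays and are no test. Over the 12 arrays r was 0.70 for JAZ5, 0.65 for JAZ4, 0.61 for JAZ6, 0.30 for JAZ8, 0.12 each for JAZ1 and JAZ12, -0.17 for JAZ7 and -0.55 for JAZ3. Without the array in doubt it was 0.82 for JAZ4, above JAZ11. JAZ2 had an r of -0.37 with JAZ13, and of 0.04 without the array in doubt.

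Among the other probe sets with a named gene and a mean of at least 6 (2367 for JAZ13 and 2368 for JAZ2), JAZ9 was the nearest to JAZ13 (r = 0.943). UPD1 (0.937), CHL1 (0.934), CL27 (0.934) and CHLG (0.933) followed, and MADS55 (-0.957), OrysaZxb (-0.938) and BURP17 (-0.931) ran most against it. For JAZ2 the 5 nearest were K16 (0.840), C20ox2 (0.815), OsPP2C33 (0.794), Hox28 (0.775) and OsRac5 (0.738), and the 3 most opposed were ABCG37 (-0.793), the jasmonate synthesis gene AOS1 (-0.692) and MST3 (-0.661). The likeness to JAZ2 came from 1 array: without it r was -0.708 for K16, -0.275 for C20ox2, -0.444 for OsPP2C33, 0.374 for Hox28 and -0.861 for OsRac5.

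The comparison of gs1;2 with WT at 7 d asks how the lack of the enzyme bears on the repressor genes early in growth. Of the 11 other JAZ genes 0 passed, at an adjusted p under 0.05 from limma with Benjamini-Hochberg adjustment, where 1.25% of all genes did. Of all genes 0.787% passed as higher and 0.464% as lower. The median difference of the 11 was 0.20, against 0.00904 over all genes. Of the 11, 4 had an unadjusted p under 0.05 (limma), all higher in gs1;2. The share of all genes at that threshold was not computed. JAZ11 had the widest difference of these 11. It was at 8.27, 7.61 and 7.87 in gs1;2 arrays, against 6.90, 6.95 and 6.19 in WT arrays, without overlap (1.24, SE 0.36, adjusted p = 0.122, limma). Without the array in doubt, which lowers the shared estimate of the spread, JAZ11 passed (SE 0.24, adjusted p = 0.0376, limma), the sole one of the 11, where 0.955% of all genes passed as higher. JAZ9 followed with 9.19, 9.09 and 8.69 in gs1;2 arrays, against 8.49, 8.18 and 7.82 in WT arrays (0.83, SE 0.22, adjusted p = 0.0996, limma). JAZ10 (0.60), JAZ8 (0.51) and JAZ12 (0.49) did not pass either, nor did JAZ3 and JAZ7 (0.20 each), JAZ4 (0.14), JAZ1 (0.05), JAZ6 (0.02) and JAZ5 (-0.01).

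At 11 d the genotype comparison carries a possible further limit. The growth text of the labels puts samples 13 to 36 in a growth chamber for 18 days, and the titles of the WT arrays at 11 d end in 13, 14 and 15. Whether the title numbers are those sample numbers is not stated. Title numbers 8 and 9 each occur in both genotypes at 7 d, and the labels give these WT plants an age of 11 d, not 18. If the numbers are the same, a growth condition of its own for WT at 11 d and the genotype cannot be told apart. Of the 11 other JAZ genes 1 rose and 0 fell, where 23.9% of all genes rose and 22.8% fell. The riser was JAZ4, with 10.42, 10.37 and 10.34 in the arrays labelled gs1;2, against 9.90, 9.81 and 9.78 in WT arrays (0.54, SE 0.08, adjusted p = 0.000281, limma). It passed in all 12 fits that leave out an array, while the other probe set of JAZ4 differed by 0.42 and did not pass (SE 0.17, adjusted p = 0.103, limma). An unadjusted p under 0.05 was had by 5 of the 11, 3 higher and 2 lower. At least 46.7% of all genes had one too, since that share passed after adjustment.

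JAZ9, JAZ10 and JAZ11 did not pass at 11 d with all arrays. JAZ11 was at 7.71, 7.48 and 6.18 in the arrays labelled gs1;2, against 6.55, 6.52 and 5.87 in WT arrays, so that replicate 3 of the mutant lies within the range of WT as for JAZ13. Its difference was 0.81 (SE 0.36, adjusted p = 0.126, limma) and became 1.28 (SE 0.27, adjusted p = 0.0043, limma) without that array. JAZ9 differed by 0.61 (SE 0.22, adjusted p = 0.0605, limma) and by 0.80 without it (SE 0.22, adjusted p = 0.0211, limma). Without it 3 of the 11 rose and 0 fell, where 21.9% of all genes rose and 21.3% fell. JAZ10 differed by 0.37, JAZ6 by 0.32, JAZ5 by 0.13 and JAZ1 by 0.11, whereas JAZ12 (-0.64), JAZ8 (-0.62), JAZ7 (-0.25) and JAZ3 (-0.20) were below 0, and none of these 8 passed.

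**Figure D4:**
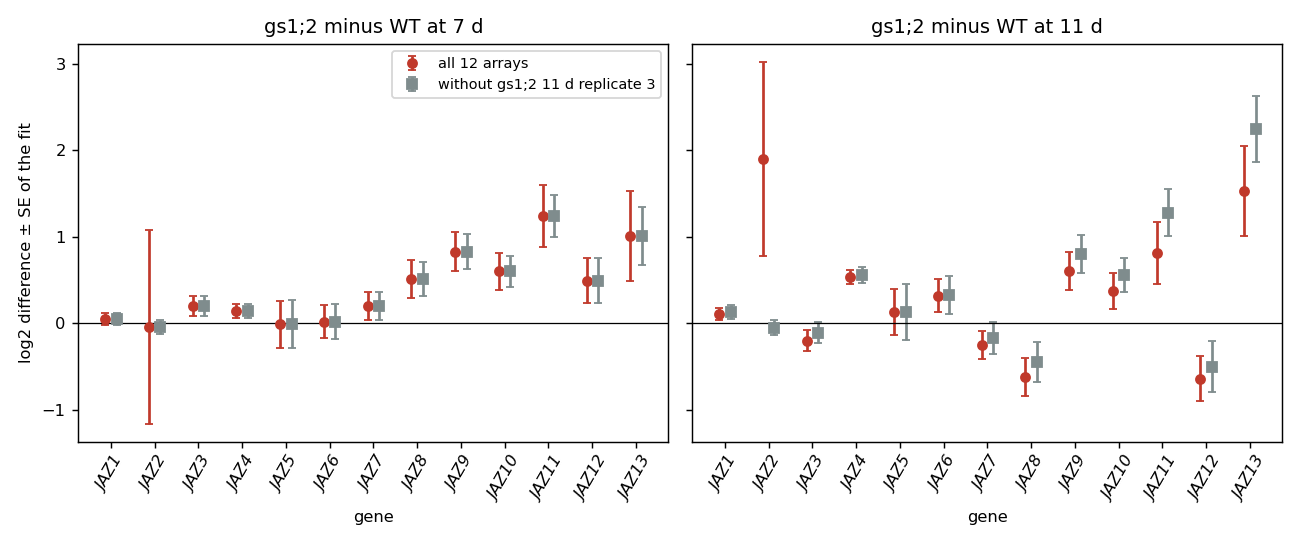
Log2 difference between gs1;2 and WT (vertical axis, with the SE of the fit) for the 13 JAZ genes (horizontal axis) at 7 d and at 11 d. Red circles use all 12 arrays and grey squares leave out the array labelled gs1;2 11 d replicate 3; JAZ2 moves from 1.90 to -0.05 at 11 d, while JAZ13 moves from 1.53 to 2.25.

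The age comparison asks which repressor genes differ between 11 and 7 d within a genotype. In gs1;2 plants 2 of the 11 other JAZ genes fell and 0 rose, where 8.98% of all genes fell and 6.51% rose. JAZ9 was at 7.83, 8.08 and 7.38 at 11 d, against 9.19, 9.09 and 8.69 at 7 d, without overlap (-1.23, SE 0.22, adjusted p = 0.00395, limma). JAZ8 fell by 0.87 (SE 0.22, adjusted p = 0.0269, limma), a call that was lost without the array in doubt (adjusted p = 0.105, limma, where 6.93% of all genes fell) and held in 8 of 12 fits that leave out an array.

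In WT plants the doubt about a growth condition of the 11 d plants applies too. Such a condition, if there was one, and age cannot be told apart. JAZ9 fell by 1.01 (SE 0.22, adjusted p = 0.00329, limma), JAZ4 fell by 0.33 (SE 0.08, adjusted p = 0.00606, limma) and JAZ3 rose by 0.56 (SE 0.12, adjusted p = 0.00237, limma). These 3 of 11 stand beside 53.8% of all genes that passed in WT, 25.5% higher and 28.4% lower. JAZ9 was thus the sole one of the 11 that passed in both genotypes, with the same direction as JAZ13. JAZ9 passed in all 12 fits that leave out an array, for both genotypes.

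The last comparison asks whether the difference between gs1;2 and WT changes with age. Of the 11 other JAZ genes 1 changed upward and 2 downward, where 38.2% of all genes changed, 18.6% upward and 19.6% downward. They were JAZ4, JAZ8 and JAZ12, whose values are given among the additional observations. For JAZ13 the change was 0.52 (SE 0.74), and 1.24 (SE 0.51) without the array in doubt. For JAZ2 it was 1.94 (SE 1.59), and -0.01 (SE 0.13) without that array.

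The rest of the pathway was described from a list of 24 measured genes by their roles. At 7 d 0 of the 24 passed in limma, where 1.25% of all genes did. Of the 24, 4 had an unadjusted p under 0.05 (limma), all higher in gs1;2. The share of all genes at that threshold was not computed. PBZ1, a defence gene that responds to jasmonate, was at 7.79, 8.55 and 8.54 in gs1;2 arrays, against 5.41, 5.72 and 6.24 in WT arrays, without overlap, and did not pass (2.51, SE 0.90, adjusted p = 0.197, limma). PBZ1 varied widely within the groups at 11 d, with 8.35, 9.55 and 5.97 in the arrays labelled gs1;2, against 7.68, 4.76 and 8.33 in WT arrays, and these overlap. In a fit of the 7 d arrays alone it passed at 7 d (SE 0.25, adjusted p = 0.006, limma).

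At 11 d 5 of the 24 rose and 4 fell, where 46.7% of all genes passed. Both genes of the receptor COI1 were lower: COI1B was at 10.46, 10.49 and 10.70 in the arrays labelled gs1;2, against 11.24, 11.32 and 11.34 in WT arrays (-0.75, SE 0.08, adjusted p = 3.68e-05, limma), and COI1A fell by 0.39 (SE 0.07, adjusted p = 0.000958, limma). The third receptor gene, COI2, differed by -0.16 and did not pass. JAR1, which makes the active conjugate, was at 8.73, 8.47 and 8.48 in the arrays labelled gs1;2, against 7.91, 8.03 and 7.93 in WT arrays, and rose by 0.60 (SE 0.09, adjusted p = 0.000361, limma).

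Of 14 genes matched to jasmonate synthesis or its relatives, DAD1 included, 3 rose and 0 fell at 11 d. Of all genes 23.9% rose and 22.8% fell. Without the array labelled gs1;2 11 d replicate 3, 6 of the 14 rose and 0 fell, where 21.9% of all genes rose. The 3 were OPR1 (1.83, SE 0.17, adjusted p = 1.09e-05, limma), the allene oxide synthase gene AOS2 (0.92, SE 0.17, adjusted p = 0.00165, limma) and AOC (0.40, SE 0.10, adjusted p = 0.00815, limma), the allene oxide cyclase gene. OPR1 was at 7.04, 7.00 and 7.17 in the arrays labelled gs1;2, against 5.19, 4.88 and 5.66 in WT arrays. JAMYB, a MYB factor induced by jasmonate, was lower, with 4.41, 5.08 and 3.95 in the arrays labelled gs1;2, against 6.24, 7.03 and 5.99 in WT arrays (-1.94, SE 0.37, adjusted p = 0.00164, limma). These calls, with those of COI1A, COI1B and JAR1, held in all 12 fits that leave out an array.

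Of the 4 genes matched as adaptors or co-repressors 1 rose and 1 fell at 11 d, by 0.22 each, where 23.9% of all genes rose and 22.8% fell. Without the array in doubt 0 rose and 1 fell. The 4 include ASP1, which may be another gene of that symbol and whose brighter probe set averaged 2.99 over the 12 arrays. ASPR2, of the TOPLESS type, rose by 0.22 (adjusted p = 0.0492, limma) and passed in 4 of 12 fits that leave out an array, with the highest adjusted p of 0.169 without the array labelled gs1;2 11 d replicate 2. TPR3, also of the TOPLESS type, fell by 0.22 (adjusted p = 0.0228, limma) and passed in 9 of 12, with the highest adjusted p of 0.0949 without WT 11 d replicate 3. NINJA1 differed by -0.18 (adjusted p = 0.0596, limma) by its brighter probe set. Its dimmer probe set was at 8.51, 8.55 and 8.68 in the arrays labelled gs1;2 at 11 d. In WT arrays at 11 d it was at 8.97, 9.04 and 8.96, without overlap. Without the array in doubt, 14 of the 35 jasmonate genes other than JAZ2 and JAZ13 passed at 11 d, 10 higher and 4 lower, against 10 with it, 6 higher and 4 lower, while the share of all genes was 43.2% without it.

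**Figure D5:**
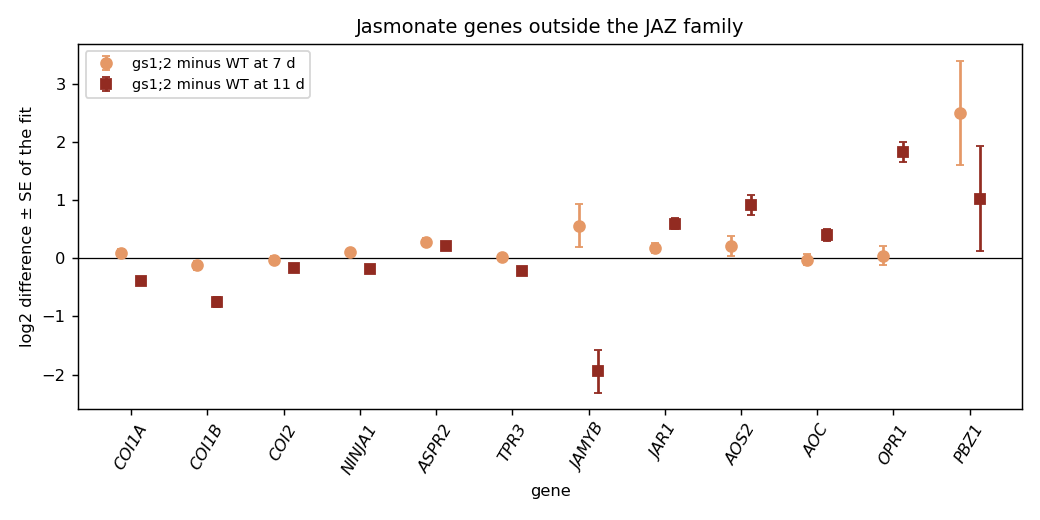
Log2 difference between gs1;2 and WT (vertical axis, with the SE of the fit over 12 arrays) at 7 d and at 11 d for jasmonate genes outside the JAZ family, ordered by role from receptors to a responsive gene (horizontal axis). COI1A, COI1B and JAMYB lie below 0 and JAR1, AOS2, AOC and OPR1 above 0 at 11 d, and PBZ1 has the widest SE (0.90) at both ages.

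With age, 10 of the 24 genes passed in WT plants, 6 higher and 4 lower, where 53.8% of all genes did. In gs1;2 plants 1 of the 24 passed, where 15.5% of all genes did: AOS1 fell by 0.48 (adjusted p = 0.0382, limma), a call that held in 4 of 12 fits that leave out an array. Without the array in doubt AOS1 did not pass (-0.32, adjusted p = 0.113, limma), and 2 of the 24 rose and 0 fell in gs1;2 plants, where 5.24% of all genes rose and 6.93% fell. The 2 were AOS2 (0.65, adjusted p = 0.0372, limma) and the lipoxygenase gene CM-LOX2 (0.74, adjusted p = 0.0341, limma), which is named after its values were seen. CM-LOX2 was at 3.16, 3.54 and 3.88 at 7 d and at 4.45 and 4.10 in replicates 1 and 2 at 11 d. These lie near the level used here as a filter for dim probe sets. Its other probe sets had gs1;2 means of 2.27 and 2.83 at 7 d and of 2.34 and 2.88 at 11 d with all arrays. In WT plants, where age and a possible growth condition of the 11 d plants cannot be told apart, COI1A (0.59), COI1B (0.80) and JAMYB (2.07) rose. JAR1 (-0.56), AOC (-0.54) and OPR1 (-1.47) fell there, and in gs1;2 plants these 6 genes did not pass (differences from -0.43 for JAMYB to 0.31 for OPR1). The markers of other tissues differed between the genotypes at 11 d. For green leaf, the log2 of the summed signal of 6 measured genes of a list of 7 was 14.08 to 14.14 in the arrays labelled gs1;2 at 11 d, against 13.90 to 14.03 in WT arrays at 11 d. CAB2R, with a mean of 13.64 in the arrays labelled gs1;2 and 13.18 in WT arrays at 11 d, makes up most of that sum. By the same means PORA (10.50 against 8.25), PSAG (8.31 against 6.72), PORB (10.22 against 9.09) and RBCS (10.01 against 9.25) were also higher in gs1;2. LIR1 went the other way, with a mean of 9.79 in the arrays labelled gs1;2 and 12.32 in WT arrays at 11 d. The 2 measured phloem markers of a list of 3 summed to 13.20 to 13.28 in the arrays labelled gs1;2 at 11 d, against 13.33 to 13.35 in WT arrays at 11 d. SUT1, the dimmer of them, averaged 8.92 in the arrays labelled gs1;2 and 10.05 in WT arrays at 11 d. SUS1, which makes up most of the sum, averaged 13.18 in both by its brighter probe set. The 2 measured root markers of a list of 5 summed to 8.73 to 8.81 in the arrays labelled gs1;2 at 11 d, against 7.92 to 8.07 in WT arrays at 11 d. Their part in the results at 11 d was not tested. In the array in doubt the sums were 14.12 for green leaf, 13.20 for phloem and 8.73 for root. The ranges of its group include this array, and it is the lowest of its group for phloem and for root.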

How the data were processed

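Expression was measured on 12 arrays in 4 groups of genotype and age. The deposited table holds log2 signals that the authors made by RMA. The submitters' processing notes name R 3.1.0, and whether arrays were processed in 1 run is not given in the sources used here. Array medians lay between 4.942 and 5.003, so no further normalization was applied. How far a signal stands above background is unknown, and precision is limited by how many arrays there are. Without 187 controls, 57194 probe sets were fitted with limma 3.58.1 in R 4.3.3, with a mean per group over all 12 arrays (8 residual degrees of freedom). P-values are two-sided and adjusted by Benjamini-Hochberg over 57194 probe sets per contrast. A gene of the pathway was counted by its probe set with the highest mean, and the shares of all genes given beside such counts were formed alike over 17905 genes.

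Names came from the platform's probe annotation, updated by gene ID through a gene table of ASM3414082v1. The members, gene lists and tests were chosen with earlier results of these data known. The list held symbols for the JAZ family, receptors, adaptors, transcription factors, conjugation, synthesis, breakdown and responsive genes. It gave 13 JAZ genes and 24 others with a probe set, and the 7 breakdown symbols matched 0 genes. Since matching was by symbol or synonym alone, the 24 may hold genes of other function, possibly DAD1 and ASP1. The text names all JAZ genes, the 3 genes of each other role with the smallest p in the genotype comparisons, the 5 nearest and 3 most opposed named genes of each member, and the 5 named genes each way that deviate most in the array where the members part. OPR1 is named from 1 of the 2 genes with that synonym, since the other had no probe set. OPR5 is read by 2 probe sets, of which the brighter is given.

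Simulated arrays tested the fit for the genotype comparison at 11 d, over 57194 probe sets with 200 changed. It recovered 91% of changes of 1 and 97% of changes of 2 (log2), with 12 false calls. The simulated noise was normal and independent between probe sets and arrays, and no array went against its label. In the data 46.7% of all genes passed at 11 d, so these rates hold for the simulated setting and not for that comparison. The alternatives were trend and robust moderation, a filter on dim probe sets, a common median, quantile normalization, a fit of the groups compared, array weights, other rules for the probe set of a gene, a block and leaving out each array.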

Additional observations from a re-analysis of the deposited data

Results flagged for a closer look

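The difference between gs1;2 and WT changed with age in 10 of the 35 jasmonate genes other than JAZ2 and JAZ13. That is 28.6%, where 38.2% of all genes changed, by limma's interaction term with Benjamini-Hochberg adjustment. All 10 are among the genes named here. The change is the difference at 11 d minus the difference at 7 d (log2). It was -2.50 for JAMYB (adjusted p = 0.00433), 1.78 for OPR1 (adjusted p = 0.000349), -0.63 for COI1B (adjusted p = 0.00252) and -0.49 for COI1A (adjusted p = 0.00356), and these calls held in all 12 fits that leave out an array. In the JAZ family it was -1.13 for JAZ8 (adjusted p = 0.0204, passing in 10 of 12 fits), 0.40 for JAZ4 (adjusted p = 0.0237, 7 of 12) and -1.14 for JAZ12 (adjusted p = 0.0456, 2 of 12, with 0.11 as the highest adjusted p, without WT 11 d replicate 2). JAR1 changed by 0.42 (adjusted p = 0.0369, 5 of 12), AOC by 0.42 (adjusted p = 0.0487, 3 of 12) and NINJA1 by -0.29 (adjusted p = 0.0408, 3 of 12). The doubt about the growth of the WT plants at 11 d applies to all 10.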

How the results depend on the processing

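Over the 35 jasmonate genes other than JAZ2 and JAZ13, the count that passed at 7 d was 0, and it was 1 with trend and robust moderation (ASPR2), 1 in a fit of the groups compared (PBZ1) and 0 to 1 when an array was left out (1 without the array labelled gs1;2 11 d replicate 3, JAZ11). At 11 d it was 10, and 19 with array weights (11 higher and 8 lower), with 8 to 14 when an array was left out. For age in gs1;2 it was 3, and 1 in a fit of the groups compared, with 1 to 3 when an array was left out (1 without gs1;2 7 d replicate 1); all 3 were lower, against 1 lower and 2 higher without the array labelled gs1;2 11 d replicate 3. For age in WT it was 13, with 12 to 13. For the change of the genotype difference with age it was 10, with 5 to 9 when an array was left out, and 5 without WT 7 d replicate 1, gs1;2 7 d replicate 3, WT 11 d replicate 2 or 3, or the array labelled gs1;2 11 d replicate 1. The cause of these shifts was not tested. The share of all genes that passed was computed only for the main fit and without the array labelled gs1;2 11 d replicate 3. It was 1.25% and 1.45% at 7 d, 46.7% and 43.2% at 11 d, and 15.5% and 12.2% for age in gs1;2. For age in WT it was 53.8% and 53.5%, and for the change with age 38.2% and 35.7%. Whether all genes shifted alike in the other settings is not known. A replicate block on the title numbers 8 and 9, which WT and gs1;2 arrays share at 7 d, gave 1 gene for age in gs1;2 and moved no other count by over 1.5 times. Arrays of the same title number deviated together with r of 0.047 and 0.0513, so the numbers were not taken as pairs. When an array was left out, the JAZ13 difference between gs1;2 and WT ranged from 0.64 to 1.25 at 7 d and from 0.95 to 2.25 at 11 d, and that of JAZ2 from -0.07 to 0.02 at 7 d and from -0.05 to 2.90 at 11 d. A fit of the groups compared gives no value for the change with age.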
